A study of Mus musculus with 6 samples.

Results

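Pyruvate made from glucose and lactate is burned in heart muscle only after it has entered the mitochondrion. This step and the citric acid cycle that follows it are described here through 32 genes. They were chosen by name for their place in the pathway, with earlier results of these data known. All were found among the 20121 genes listed for these hearts. The 32 genes encode the mitochondrial pyruvate carrier, the pyruvate dehydrogenase complex with its kinases and phosphatases, pyruvate carboxylase, and enzymes of the cycle. RNA was sequenced from whole hearts that were taken on postnatal day 14 from pups of mixed ICR and C57BL/6 background. Control pups (n = 3) had no Cre and carried TRalphaAMI, a knocked-in allele that makes a dominant negative thyroid hormone receptor alpha once Cre has acted. Mutant pups (n = 3) were littermates with the same allele and Myh6-Cre, a transgene active in heart muscle cells. The allele was thus present in all 6 hearts, and since no heart carried Myh6-Cre alone, effects of Cre and of the receptor cannot be told apart.

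As background, the carrier brings pyruvate across the inner membrane, and pyruvate dehydrogenase turns it into acetyl-CoA. Kinases switch that complex off by phosphorylation and phosphatases switch it on again, so their balance sets how much carbohydrate the heart burns in place of fatty acids. The cycle then oxidises acetyl-CoA to CO2 and passes electrons to the respiratory chain. Heart muscle is packed with mitochondria, and thyroid hormone, which acts through nuclear receptors, is known to raise the oxidative capacity of the heart around and after birth.

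Sequences around the starts of some of these genes are shown. Among them are Pdp2, the member with the largest fall, and Pdk3, the one with the largest rise. Any link between these sequences and the changes was not tested. Promoter windows of 300 bases, 250 before and 50 after a gene's start, were taken from RefSeq on GRCm38.p6, and 29 of the 32 members had at least 1 window. The stretch before Pdp2 (chr8:104591222-104591450, plus strand) and the one before Pdk3 (chrX:93832202-93832400, minus strand), each up to the first annotated exon base, read as follows, all in lower case because neither held a match to the motifs searched.
Pdp2: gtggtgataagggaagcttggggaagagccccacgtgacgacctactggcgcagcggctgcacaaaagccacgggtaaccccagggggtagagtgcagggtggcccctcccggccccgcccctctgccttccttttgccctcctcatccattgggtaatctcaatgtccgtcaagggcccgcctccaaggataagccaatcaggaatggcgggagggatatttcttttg
Pdk3: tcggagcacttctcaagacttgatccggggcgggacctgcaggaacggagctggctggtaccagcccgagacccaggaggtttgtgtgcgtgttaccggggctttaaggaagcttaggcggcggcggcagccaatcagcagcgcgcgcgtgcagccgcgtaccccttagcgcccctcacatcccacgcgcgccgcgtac

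Each window was searched on both strands for 4 motifs. The half-site AGGTCA repeated in the same direction after a gap of any 4 bases, a form that thyroid hormone receptors bind, was in the windows of 0 of 29 members and of 0.0148% of the 27025 genes with a window. Only 4 of those 27025 genes held this exact form. The search therefore cannot tell whether receptor sites are present near the members. The letters TCAAGGTCA of the estrogen-related receptors, nuclear receptors that drive mitochondrial genes, were found in the window of 1 member, Sdhd (3.45%, against 0.466% of all genes). The core of NRF1, an activator of nuclear genes for mitochondria, which reads GCGCA, any base, GCGC, was found for 4 members, Dld, Sdha, Sdhd and Sucla2 (13.8%, against 5.19% of all genes). The ETS core CCGGAAG was found for 6 members, Dlst, Idh3b, Idh3g, Mpc1, Sdhb and Sdhd (20.7%, against 9.93%), and no motif overlapped another in the members. These are matches of letters, not sites shown to be bound. The 27025 genes also include genes too scarce to test in these hearts, where 14877 were tested, whereas all members were tested. The shares are thus not set against a like group and do not show an excess in the members. The NRF1 matches, in capitals with their flanks, are given below in the direction of the gene, and Sucla2 holds its match on the opposite strand. The match of Dld lies after the RefSeq start. That of Sucla2 lies before the RefSeq start but far inside the GENCODE gene, which starts at chr14:73525319. The third Sdha match listed also lies inside the GENCODE gene, which starts at chr13:74350280 on the minus strand.
Dld, chr12:31351422-31351451, minus strand: cggcgatgacgtatatgttGCGCAGGCGCa
Sucla2, chr14:73552759-73552788, plus strand: ctgcgtctctGCGCCTGCGCggtgcccagg
Sdha, chr13:74350319-74350348, minus strand: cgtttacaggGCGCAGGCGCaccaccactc
Sdha, chr13:74350276-74350305, minus strand: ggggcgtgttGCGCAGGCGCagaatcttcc
Sdha, chr13:74350231-74350260, minus strand: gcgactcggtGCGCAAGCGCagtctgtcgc
Sdhd, chr9:50603909-50603938, minus strand: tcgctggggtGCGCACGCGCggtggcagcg

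The match of Sdhd to the estrogen-related receptor element lies after the RefSeq start and straddles the GENCODE start, on the opposite strand, and is in capitals here.
Sdhd, chr9:50603800-50603829, minus strand: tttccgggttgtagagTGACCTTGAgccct

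Most of these genes were lower in the mutant hearts. Of the 32 members, all of which passed the filter on low counts, 28 fell, 2 rose (Pdk1 and Pdk3) and 2 did not pass the test (Pdp1 and Idh2). The test was the quasi-likelihood test of edgeR, adjusted by Benjamini-Hochberg over 14877 genes. Over all genes tested, 37.5% were called, 19.5% lower and 18.1% higher, against 87.5% and 6.25% of the members. Since the members were chosen with earlier results of these data known, this contrast is a description. The median log2 fold change, mutant over control, was -0.62 for the members and -0.00 for all genes. The fall reached 1.5-fold in 19 members and 2-fold in 5 (Pdp2, Sucla2, Mpc1, Pcx and Pdhb), where 8.84% and 3.18% of all genes fell that far. The values of the groups did not overlap in 31 members, Pdp1 being the exception, against 49.8% of all genes. All p-values here rest on the spread among 6 hearts.

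**Figure D1:**
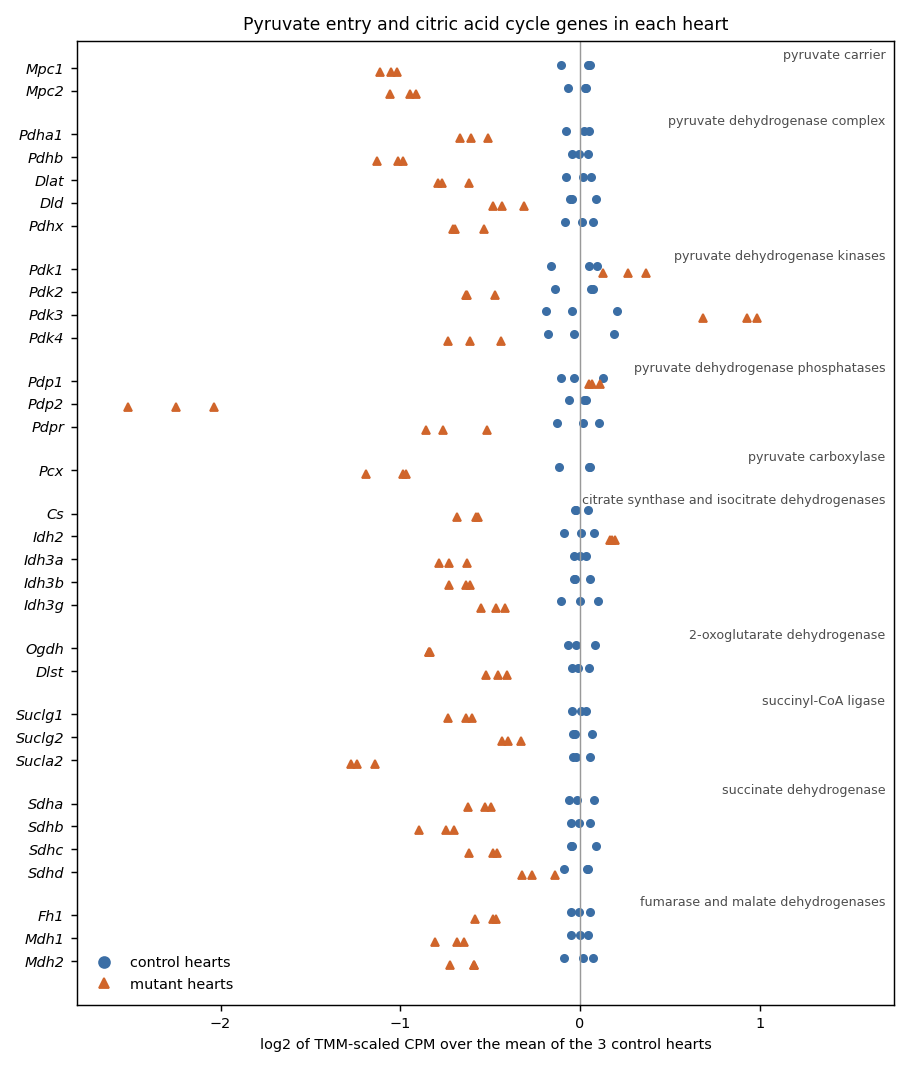
Each point is 1 heart, placed by the log2 of its TMM-scaled CPM over the mean of the 3 control hearts, for the 32 genes grouped by role (circles, control; triangles, mutant). Mutant hearts lie left of the control hearts for the 28 genes that fell, farthest for Pdp2, and right of them for Pdk1, Pdk3 and Idh2.

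Of all counts, the members together took 1.94% to 2.03% in control and 1.57% to 1.67% in mutant hearts. Transcripts of the mitochondrial genome were lower too and took 22.3% to 24.8% of the counts in control and 16.7% to 18.8% in mutant hearts. With those left out of the total, the members took 2.57% to 2.62% in control and 1.92% to 2.05% in mutant hearts, again without overlap. In whole hearts, fewer cells of a type and less RNA per cell cannot be told apart. Library totals were 43314706 to 62095277 counts, and the lowest count of any member in any heart was 211.

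Markers of heart muscle were abundant in every heart. Their summed level was 31139 to 35229 CPM in control and 29935 to 30992 CPM in mutant hearts, 3 of 8 (Actc1, Tnnc1 and Des) fell and none rose, with a median log2 fold change of -0.06. Of the markers of other cells, 4 of 5 for endothelium fell (summed level 1267 to 1385 CPM in control, 1096 to 1161 CPM in mutant hearts), 3 of 5 for macrophages fell (62.8 to 71.2 CPM, then 44.9 to 48.3 CPM), 1 of 5 for smooth muscle and pericytes fell (1666 to 1793 CPM, then 1463 to 1562 CPM) and 3 of 5 for fibroblasts rose (1189 to 1258 CPM, then 1397 to 1512 CPM). The smooth muscle and pericyte sum was mostly Rgs5, the gene that fell (mean 1323 CPM in control, 1101 CPM in mutant hearts). In that list Acta2 alone had a positive log2 fold change (0.32, edgeR adjusted p = 0.0533, not called). Red cell markers had 0 of 5 called (157 to 245 CPM, then 91.2 to 242 CPM). Of 2 brown fat markers, Ucp1 was at 3 counts or fewer in every heart, and Cidea, at 23.2 to 31 CPM in control and 27.1 to 29.8 CPM in mutant hearts, was not called. Of 5 skeletal muscle markers (1275 to 1478 CPM, then 842 to 921 CPM) 3 could be tested, and of these Ckm, which heart muscle also makes, fell. Ckm, at a mean of 1334 CPM in control and 867 CPM in mutant hearts, made up nearly all of that summed level. Acta1 had 599 to 1279 counts in control and 369 to 954 counts in mutant hearts and was not called (log2 fold change -0.79, edgeR adjusted p = 0.118), and Myh1, Myh2 and Myh4 were at 17 counts or fewer in every heart. These calls rest on TMM scaling between libraries. Mean RPKM, a level per gene length without composition scaling, was slightly higher in mutant hearts for Pecam1, Kdr, Des and Rgs5. For Pecam1 it was 38.7 in control and 40.8 in mutant hearts, and for Des 361 and 378. The other markers called lower also had lower mean RPKM, such as Tek (22.5 and 22) and Csf1r (6.05 and 4.7). The part of these cell types in the members' values was not tested.

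Both subunits of the mitochondrial pyruvate carrier fell about equally. Mpc1 measured 32.8, 33.1 and 29.7 CPM in the control hearts and 15.7, 15.4 and 14.8 CPM in the mutant hearts, a log2 fold change of -1.06 ± 0.07 (SE; edgeR adjusted p = 4.75e-06). Mpc2 measured 207, 206 and 193 CPM in control and 105, 97.1 and 107 CPM in mutant hearts, a log2 fold change of -0.97 ± 0.06. For both genes every mutant heart lay far below every control heart. The protein works as a pair of these subunits, and the share of Mpc1 in their summed RPKM, a level per gene length, was 35.7% ± 0.533 for control and 34.4% ± 1.62 for mutant hearts (SD over 3 hearts), with overlapping groups. The value of Mpc1 is less certain than that of Mpc2: 23.1% of its exon bases overlap 4930506C21Rik on the opposite strand, a gene with 69 to 143 counts per heart that fell too, and the TruSeq kit used does not mark the strand. Of the 50-base stretches in Mpc1 transcripts, 26.3% occur elsewhere too, mostly in 4930506C21Rik and the pseudogene Mpc1-ps.

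All 5 genes of the pyruvate dehydrogenase complex fell, by unequal amounts. Pdhb, the beta subunit of the decarboxylase (ENSMUSG00000021748, mm10 chr14:8165996-8173025, minus strand), measured 487, 471 and 458 CPM in control and 239, 216 and 234 CPM in mutant hearts, 2.06-fold lower (log2 fold change -1.04 ± 0.06; edgeR adjusted p = 2.92e-06). Its partner Pdha1, the alpha subunit that the kinases phosphorylate, went from 946 ± 44.3 to 628 ± 34.0 CPM (SD over 3 hearts), 1.51-fold lower. The groups were well apart for both subunits. Of the 50-base stretches in Pdhb transcripts, 11.4% occur elsewhere too, mostly in the pseudogene Gm6123. Dlat, the acetyltransferase of the core, fell 1.65-fold, and Pdhx, the protein that binds the last enzyme to the core, 1.56-fold. Dld, that last enzyme, which also serves 2-oxoglutarate dehydrogenase and other complexes, fell least, by 1.33-fold, from 539 ± 30.6 to 406 ± 25.2 CPM. Map3k15, on the opposite strand, covers 16.2% of the exon bases of Pdha1, but had 35 to 50 counts per heart.

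The 4 kinases that switch the complex off did not move as a block. Pdk4, the kinase known to rise in fasting and the most abundant of them in the heart, measured 2047, 1587 and 1756 CPM in control and 1326, 1174 and 1081 CPM in mutant hearts (log2 fold change -0.59 ± 0.11; edgeR adjusted p = 0.00202). Pdk2, the form found in most tissues, measured 330, 381 and 378 CPM in control and 234, 235 and 262 CPM in mutant hearts (-0.58 ± 0.08). Both abundant kinases thus fell about 1.5-fold, without overlap between the groups and close to the change of Pdha1, although the control hearts varied widely in Pdk4.

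The less abundant kinases rose. Pdk3 (ENSMUSG00000035232, chrX:93764607-93832201, minus strand) measured 7.45, 6.25 and 5.65 CPM in control and 12.8, 12.3 and 10.4 CPM in mutant hearts, 1.84-fold higher (log2 fold change 0.88 ± 0.12; edgeR adjusted p = 4.53e-04). Pdk1, the kinase known for its rise in low oxygen (ENSMUSG00000006494, chr2:71873224-71903858, plus strand), measured 184, 179 and 154 CPM in control and 223, 208 and 189 CPM in mutant hearts, a log2 fold change of 0.26 ± 0.09 (edgeR adjusted p = 0.0396). The rise of Pdk3 was clear in every mutant heart, whereas the lowest mutant heart for Pdk1 stood only just above the highest control heart. The call of Pdk1 was lost without control replicate 2 (adjusted p = 0.0732), control replicate 3 (0.12), mutant replicate 1 (0.0974) or mutant replicate 2 (0.0971), and its adjusted p ran from 4.31e-04 to 0.12 over 16 alternatives.

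Per gene length, Pdk4 remained the main kinase transcript. It made up 81.7%, 75.6% and 77.9% of the summed RPKM of the 4 kinases in control and 77.8%, 76% and 73.5% in mutant hearts, and Pdk2 17.8% ± 2.87 and 17.3% ± 2.28 (SD over 3 hearts). Both shares overlapped between groups. The share of Pdk1 was 3.41% ± 0.387 in control and 5.92% ± 0.14 in mutant hearts, and that of Pdk3 0.386% ± 0.0368 and 1.03% ± 0.0615, without overlap. Kinase transcripts set against those of kinases and Pdha1 together were 71.9% ± 2.16 and 72.7% ± 1.02, with overlap. Each of 11 such shares was compared by a two-sided exact permutation test, in which 3 hearts against 3 cannot give a p below 0.1 (0.183 after Benjamini-Hochberg adjustment), so none could pass, and non-overlap is given as a description.

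The phosphatases, which switch the complex back on, parted from each other. Pdp2, a catalytic subunit (ENSMUSG00000048371, chr8:104591451-104599026, plus strand), measured 22.9, 24.4 and 24.2 CPM in control and 4.16, 5.02 and 5.8 CPM in mutant hearts, 4.77-fold lower (log2 fold change -2.25 ± 0.11; edgeR adjusted p = 9.98e-07). Of the 14877 genes tested, 89 had a larger fall. Pdp1, the other catalytic subunit, known to respond to calcium (ENSMUSG00000049225, chr4:11958184-11966452, minus strand), measured 55.2, 49.3 and 46.9 CPM in control and 52.9, 52.3 and 54.5 CPM in mutant hearts, with a log2 fold change of 0.08 ± 0.07 that did not pass the test (edgeR adjusted p = 0.431). Mutant hearts held Pdp2 at a low level in every heart, and Pdp1 within the range of the controls. Pdp2 was 24.7%, 28.1% and 29% of the summed RPKM of the pair in control hearts and 5.87%, 7.06% and 7.77% in mutant hearts (exact permutation p = 0.1). Pdpr, the regulatory subunit, went from 96.7 ± 7.87 to 59.2 ± 7.3 CPM (SD over 3 hearts), with a log2 fold change of -0.71 ± 0.10.

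**Figure D2:**
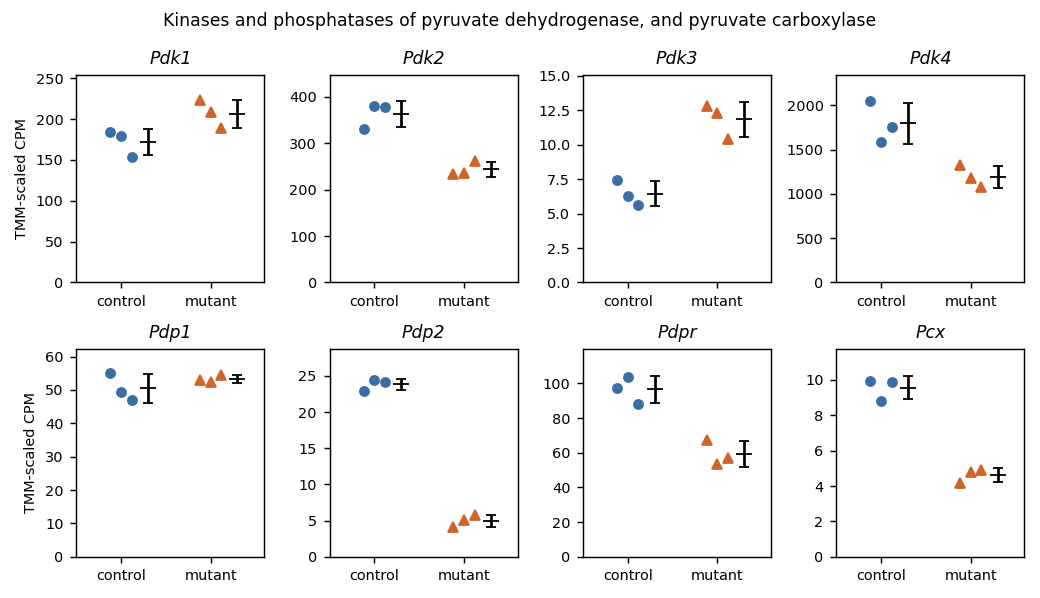
TMM-scaled CPM of the kinases Pdk1 to Pdk4, the phosphatase genes Pdp1, Pdp2 and Pdpr, and Pcx in each heart (points), with the mean and SD of 3 hearts (bars). Mean Pdp2 was 23.8 CPM in control and 4.99 CPM in mutant hearts, while the groups overlapped for Pdp1, and Pdk1 and Pdk3 were higher while Pdk2 and Pdk4 were lower.

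Pcx, pyruvate carboxylase, which turns pyruvate into oxaloacetate and so refills the cycle, was scarce and fell. It measured 9.95, 8.8 and 9.9 CPM in control and 4.18, 4.82 and 4.88 CPM in mutant hearts, 2.06-fold lower (log2 fold change -1.04 ± 0.10; edgeR adjusted p = 5.10e-05). Against Pdha1, the other route of pyruvate, its share of the pair's summed RPKM was 0.877% ± 0.0909 in control and 0.643% ± 0.0833 in mutant hearts (SD over 3 hearts), so the transcript of the carboxylase was far below that of the dehydrogenase in both groups.

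At the entry of the cycle, Cs, citrate synthase, was 1668 ± 46.2 CPM in control and 1093 ± 48.1 CPM in mutant hearts (SD over 3 hearts), a 1.53-fold fall. The 3 subunits of the NAD-dependent isocitrate dehydrogenase fell, Idh3a (catalytic) by 1.64-fold, Idh3b by 1.58-fold and Idh3g by 1.39-fold. Idh2, the NADP-dependent mitochondrial enzyme, which supplies NADPH against oxidants (ENSMUSG00000030541, chr7:80094846-80115392, minus strand), did not join them. It measured 1559, 1746 and 1663 CPM in control and 1873, 1862 and 1895 CPM in mutant hearts, a log2 fold change of 0.18 ± 0.07 that did not pass (edgeR adjusted p = 0.0561). Each mutant heart was nevertheless above each control heart. Idh2 was at the threshold: it passed as higher in 8 of 16 alternatives, among them DESeq2 (adjusted p = 0.0297) and TMM scaling without the mitochondrially encoded genes (0.0385), with an adjusted p from 3.53e-04 to 0.146 over all 16. Its share of the summed RPKM of Idh2 and Idh3a was 79.7%, 81.8% and 81.5% in control and 88.2%, 89.2% and 89% in mutant hearts, without overlap (exact permutation p = 0.1).

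Further round the cycle, Ogdh, the first enzyme of the 2-oxoglutarate dehydrogenase complex, was 1933 ± 106 CPM in control and 1081 ± 3.02 CPM in mutant hearts (SD over 3 hearts), a 1.79-fold fall. Its partner Dlst, the succinyltransferase core, fell 1.38-fold.

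All 3 genes of succinyl-CoA ligase fell, the beta subunits by unequal amounts. Sucla2, the beta subunit of the ATP-forming enzyme (ENSMUSG00000022110, chr14:73525319-73596142, plus strand), measured 855, 812 and 803 CPM in control and 374, 341 and 348 CPM in mutant hearts, 2.33-fold lower (log2 fold change -1.22 ± 0.07; edgeR adjusted p = 1.36e-06). Suclg2, the beta subunit of the GTP-forming enzyme, measured 68, 63.6 and 63.1 CPM in control and 51.7, 48 and 49.2 CPM in mutant hearts, 1.31-fold lower (-0.39 ± 0.06). Neither gene's groups overlapped, and Suclg1, the alpha subunit that both forms share, fell in between, by 1.58-fold. Suclg2 made up 6.42%, 6.33% and 6.34% of the summed RPKM of the beta subunits in control and 10.7%, 10.8% and 10.9% in mutant hearts (exact permutation p = 0.1). Sucla2 thus remained the main beta transcript in all 6 hearts. Of the 50-base stretches in transcripts of Suclg2, 16% also occur in the pseudogene Gm15163, so its count is less certain than that of Sucla2.

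**Figure D3:**
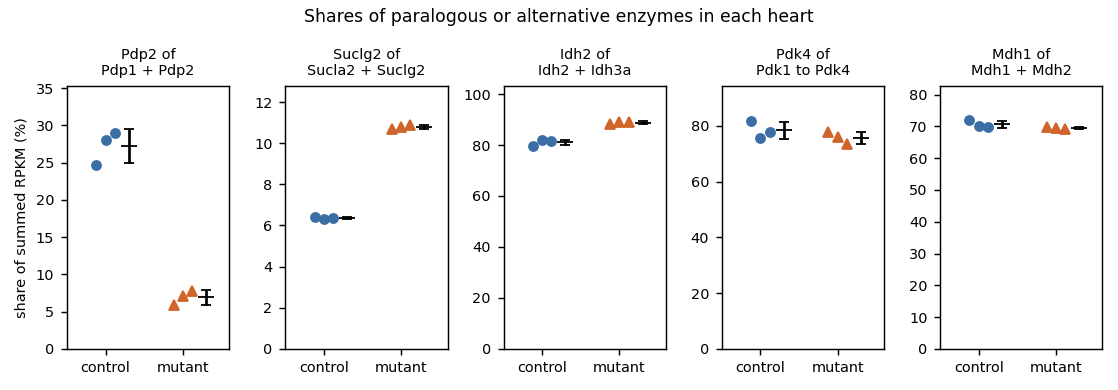
Share of 1 gene in the summed RPKM of its enzyme step in each heart (points), with the mean and SD of 3 hearts (bars), each vertical axis starting at 0. Shares of Pdp2, Suclg2 and Idh2 did not overlap between control and mutant hearts, whereas those of Pdk4 and Mdh1 did.

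The 4 subunits of succinate dehydrogenase, which is also complex II of the respiratory chain, fell to different degrees. Sdhb, the iron-sulfur subunit, fell 1.72-fold, Sdha, the flavoprotein, 1.46-fold, and Sdhc, a membrane anchor, 1.43-fold. Sdhd, the other anchor, measured 553, 557 and 508 CPM in control and 489, 432 and 449 CPM in mutant hearts, a log2 fold change of -0.24 ± 0.07 (edgeR adjusted p = 0.0243), with the nearest hearts of the groups close together. Its call was the least firm of the falls: it was lost without control replicate 1 (adjusted p = 0.0638), control replicate 2 (0.0832), mutant replicate 2 (0.0905) or mutant replicate 3 (0.0653), and over 16 alternatives its adjusted p ran from 0.0102 to 0.603.

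The last steps fell by similar amounts. Fh1, fumarase, fell 1.43-fold. Mdh1, the cytosolic malate dehydrogenase of the shuttle that carries reducing equivalents, fell 1.64-fold, from 2268 ± 74.1 to 1387 ± 80.3 CPM (SD over 3 hearts). Mdh2, the mitochondrial form that closes the cycle, fell 1.55-fold, from 1309 ± 73.3 to 845 ± 44.7 CPM. The share of Mdh1 in their summed RPKM was 70.6% ± 1.14 in control and 69.5% ± 0.327 in mutant hearts, with overlap.

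Levels per gene length ran from 2.01 to 796 RPKM among the members in control hearts. Mdh1 was highest at 796 RPKM (769 to 823), followed by Idh2 at 577 (543 to 609), Pdk4 at 461 (408 to 525) and Sdhd at 395 (371 to 408). The ranges of Pdk4 and Sdhd met at 408 RPKM, while the ranges of the first 3 did not touch. At the other end were Pdp2 at 3.77 RPKM, Pdk3 at 2.27 and Pcx at 2.01, and the last pair overlapped. In the mutant hearts Idh2 was first at 795 RPKM and Mdh1 second at 592, Sucla2 moved from rank 12 to rank 17, and Pdp2 from rank 30 to the last, rank 32, at 0.964 RPKM. RPKM carries no correction for library composition, so these values serve to order genes within a group. The length behind the RPKM of Pdhb, 1493 bases, is far below its exon total of 3861 bases in GENCODE M21, and its rank depends on that.

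**Figure D4:**
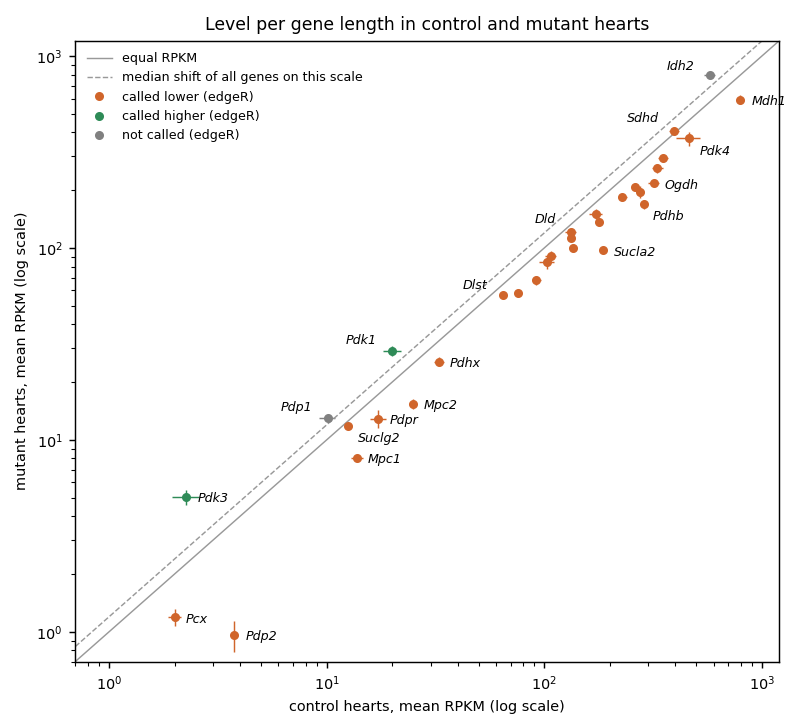
Mean deposited RPKM of each member in control (horizontal) and mutant hearts (vertical), both on log axes, with SD over 3 hearts; colours give the edgeR call, the solid line equal RPKM and the dashed line the median shift of all genes on this scale (0.26, log2). Pdp2, Sucla2, Mpc1, Pcx and Pdhb lie farthest below the dashed line, and Pdk3, Pdk1, Idh2 and Pdp1 above it.

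The scaling between libraries sets where the border between higher and lower falls. When edgeR was run on the same genes with library totals alone in place of TMM, an alternative added after the data were seen, the median of all genes shifted to 0.28 and 86.1% of calls were higher, against 48.1% with TMM. The members' median was then -0.34, which is -0.62 relative to all genes. Of the members 25 were lower, against 8.11% of all genes, and 4 higher (Pdk1, Pdk3, Idh2 and Pdp1), against 50.3%. The calls of Dld, Suclg2 and Sdhd were lost, with adjusted p of 0.151, 0.189 and 0.603, and the value of Sdhd turned to 0.04. On the deposited RPKM values, which also lack composition scaling but were tested with limma under another filter, the median of all genes was 0.17 on log2(RPKM + 1) and 0.26 on log2(RPKM + 0.1), and that of the members -0.34 on both. On either RPKM scale 24 members were lower, against 7.6% and 7.56% of all genes, and the same 4 higher, against 46.4%. Idh3g was also lost there, with limma adjusted p up to 0.0532. The fall of Pdp2 was -1.28 on log2(RPKM + 1), a scale that understates changes of genes at such a low level.

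Among genes next to this pathway, from a list of 43 named genes, falls outnumbered rises. Of the 40 tested, 18 fell, 3 rose and 19 did not pass, with a median log2 fold change of -0.20. Over all genes tested, 19.5% were lower and 18.1% higher, with a median of -0.00. These calls rest on TMM scaling, and for the neighbouring genes the alternatives are not given. Of the genes that fell, D2hgdh (5.23 in control, 5.39 in mutant hearts) and Pank1 (16.7, then 17.1) had higher mean RPKM in mutant hearts. The others that fell had lower mean RPKM there too. Both malic enzymes of larger abundance, which link malate and pyruvate, fell 2.20-fold (Me1) and 2.21-fold (Me3). Ldhd, which oxidises D-lactate, went from 14.7 ± 1.43 to 3.72 ± 0.522 CPM, but 42.1% of its exon bases overlap Znrf1 on the opposite strand, a gene with 2275 to 3828 counts per heart that fell too, so its value is uncertain. Of the 50-base stretches of Me1, 28.3% occur elsewhere, mostly in pseudogenes and a lincRNA. Ogdhl, a relative of Ogdh, went from 96.7 ± 16.6 to 26.9 ± 6.15 CPM (SD over 3 hearts). Sdhaf4, an assembly factor of succinate dehydrogenase, fell 2.19-fold, and Slc25a13, an aspartate-glutamate carrier of the malate shuttle, 2.16-fold. The genes that rose were Acly, which makes acetyl-CoA from citrate in the cytosol (log2 fold change 0.18, edgeR adjusted p = 0.0494), Slc25a1, the citrate carrier (0.37, adjusted p = 0.0163), and Slc19a2, a thiamine transporter (0.22, adjusted p = 0.0431). Acly and Slc19a2 lay close to the threshold. Pck1 and Pdha2 were listed but too scarce to test.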

How the data were processed

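RNA of 6 whole hearts was analysed, 3 control and 3 mutant, grouped by their titles. The submitters' processing notes name mm10 as the build and, as tools, featureCounts 1.5.1, STAR 2.5.2b and cutadapt 1.9. Annotation release, strand setting and treatment of multiply mapped reads: not given in the sources used here. Whole-number counts for each Ensembl gene were deposited by the authors. They also deposited RPKM, which equals the count per gene length and per library total, without composition scaling. Symbols came from GENCODE M21, which matched 20081 of 20121 identifiers.

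The test was run in R 4.3.3 with edgeR 4.0.16: filterByExpr at its defaults (14877 genes kept, 5244 removed), TMM scaling, and the quasi-likelihood F test on group alone, with Benjamini-Hochberg adjustment over all genes tested and a call at an adjusted p under 0.05. CPM is scaled to the TMM-adjusted library size, and the SE is the size of the log2 fold change over the square root of F, an approximation. The code was tested on simulated data in which few genes changed, in random directions and without a shift in library composition. That test does not bear on the choice of scaling. Alternatives used RLE and upper-quartile scaling, TMM without mitochondrially encoded genes, DESeq2 1.42.0, other filters, limma 3.58.1 on log2 RPKM (mean RPKM of at least 0.1), a replicate block, leaving out each heart and, added later, edgeR without composition scaling. Full values are given for the 3 members with the smallest adjusted p, the largest changes in each direction, members not called or called higher, the kinases and the beta subunits of succinyl-CoA ligase. From the neighbouring list, the 6 genes with the smallest adjusted p are given with a fold or mean CPM only. Those called higher are given with log2 fold change and adjusted p. The members and lists were chosen with earlier results of these data known. Depth was 43314706 to 62095277 counts per library.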

Additional observations from a re-analysis of the deposited data

How the results depend on the processing

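Over 16 alternatives, 25 of the 32 members kept both direction and side of the threshold in every one, and of 512 values 482 did, 16 lost the call, 11 gained one and 3 changed sign, all of Sdhd (0.04 on each RPKM scale and in edgeR without composition scaling). The members called lower were 24 to 28 and the median log2 fold change stayed negative, at -0.34 on both RPKM scales and without composition scaling, and -0.66 to -0.58 when 1 heart was left out. The members called higher were 4 under those 3 settings, and 1 to 2 when 1 heart was left out, being 1 without control replicate 3, mutant replicate 1 or mutant replicate 2, where Pdk1 lost its call. Over all genes, limma called 1160 lower and 7094 higher on log2(RPKM + 1), and 1155 and 7091 on log2(RPKM + 0.1), and edgeR without composition scaling 1207 and 7479. Of 77 recomputed differences in shares, 3 changed sign: that of Pdk2 among the kinases, -0.517 percentage points, ranged from -2.12 to 0.66 with 1 heart left out, the latter without control replicate 2, and was 0.501 without mutant replicate 1. That of kinases against kinases and Pdha1, 0.779, ranged from -0.45 without control replicate 2 to 1.58 without control replicate 1. The cause of these changes was not tested.

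The correlation of deviations between same-numbered hearts was 0.155, -0.0502 and 0.0956 for numbers 1, 2 and 3. Controls 1 and 3 correlated best with the mutant heart of their own number, and control 2 best with mutant 3 (0.0913). Since not every pair passed 0.1, the mark used here, the numbers are treated as names. The pups were littermates, but that does not tell which of them shared a litter. A check by number cannot show whether litter had an effect. With a replicate block, which changed no member's call, 28 members were lower and 2 higher, and over all genes 3229 and 3090.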

Other observations

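Some subunits of one complex did not keep a fixed ratio between the groups. The ratio of Pdhb to Dld in RPKM was 2.1, 2.23 and 2.19 in the control hearts and 1.36, 1.39 and 1.46 in the mutant hearts, and that of Pdhb to Pdha1 1.27, 1.21 and 1.28 against 0.904, 0.908 and 0.945. Within succinate dehydrogenase, the ratio of Sdhb to Sdhd was 0.659, 0.704 and 0.739 in control and 0.46, 0.47 and 0.516 in mutant hearts, and that of Sdhb to Sdha had means of 0.784 and 0.668. The ratio of Sucla2 to Suclg1 was 2.63, 2.41 and 2.34 in control and 1.69, 1.69 and 1.61 in mutant hearts. Groups did not overlap in any of these ratios, which do not depend on the scaling between libraries. By contrast, the share of Mpc1 in the summed RPKM of the pyruvate carrier subunits overlapped between groups (means of 35.7% in control and 34.4% in mutant hearts). The ratio of Pdk4 to Pdk2, which are alternative kinases and not subunits of one complex, overlapped too. It ranged from 3.75 to 5.6 in control and from 3.72 to 5.11 in mutant hearts. The size of the ratios with Pdhb rests on the 1493 bases behind its deposited RPKM, against 3861 in GENCODE M21. That length is the same in every heart, so it does not bear on the difference between groups. The pairs given as ratios were chosen after their values were seen, and the ratios were not tested.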
